A study of Homo sapiens with 12 samples.

Results

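The genes described here encode the factors of translation initiation (eIF) and elongation (eEF) in a pair of established cell lines of human acute myeloid leukaemia, KG-1 and MOLM-14. They are the genes of the deposited table whose symbols begin with EIF1 to EIF6 or with EEF1 or EEF2, without pseudogene symbols (ending in P and digits), antisense symbols and the EIF2AK kinases. That gives 58 of the 13881 genes listed, and all 58 passed the filter on low levels that left 13353 genes for testing. The rule uses names alone and no level or change, but it was chosen with earlier results of these data known. Its exclusion of symbols ending in P and digits removed 14 pseudogenes, and also EIF4EBP1, EIF4EBP2 and EIF4EBP3, which encode proteins that bind eIF4E and are counted below among the regulators of translation.

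Both lines were grown in RPMI medium with serum and treated for 96 h with ASLAN003, which inhibits dihydroorotate dehydrogenase and with it the making of new pyrimidine nucleotides, or with its solvent DMSO. The 4 groups were KG-1 with DMSO, KG-1 with ASLAN003, MOLM-14 with DMSO and MOLM-14 with ASLAN003, with 3 RNA sequencing libraries each. The sources used here do not state its dose. Levels are FPKM, fragments mapped to a gene scaled by transcript length and library size, a scale per length on which genes can be compared with each other.

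Initiation factors assemble the small ribosomal subunit, the initiator tRNA and the mRNA. eIF2 brings the initiator tRNA and eIF2B recharges eIF2 with GTP, eIF3 is the large scaffold on the small subunit, and eIF4E, eIF4G and eIF4A bind the mRNA cap, bridge it to the ribosome and unwind it. During elongation eEF1A delivers each aminoacyl-tRNA, the eEF1B proteins recharge eEF1A with GTP, and eEF2 moves the ribosome along by a codon. Many mRNAs of ribosomal proteins and elongation factors begin with a C and a run of pyrimidines, the 5′ terminal oligopyrimidine motif, through which mTOR and LARP1 act on their translation.

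The bases at the annotated starts are shown first because most of the members with that motif at their start fell in KG-1. RefSeq starts on GRCh38.p14 were found for 47 of the 58 members. The motif searched was a C at the start position followed by at least 4 bases that were each C or T, read on the strand of the gene and at no other position. It stood at a start of 12 members: EEF1A1, EEF1B2, EEF2, EIF2A, EIF2D, EIF2S3, EIF3D, EIF3F, EIF3K, EIF3M, EIF4A2 and EIF4B. It stood at 4.07% of all 35116 starts in the table, and at a start of 7.65% of the 9194 tested genes that have one. Windows of 30 bases follow, 10 before the start and 20 from it on, written 5′ to 3′ along the gene, with the run of C and T from the start in capitals.
EEF1A1, chr6:73521013-73521042, minus strand: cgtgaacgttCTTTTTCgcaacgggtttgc
EEF1B2, chr2:206159885-206159914, plus strand: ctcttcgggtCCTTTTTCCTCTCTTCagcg
EEF2, chr19:3985444-3985473, minus strand: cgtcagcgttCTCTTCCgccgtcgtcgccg
EIF2A, chr3:150546777-150546806, plus strand: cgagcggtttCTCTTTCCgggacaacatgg
EIF2D, chr1:206612446-206612475, minus strand: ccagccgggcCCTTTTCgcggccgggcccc
EIF2S3, chrX:24054946-24054975, plus strand: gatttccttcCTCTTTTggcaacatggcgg
EIF3D, chr22:36529147-36529176, minus strand: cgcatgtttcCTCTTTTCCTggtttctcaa
EIF3F, chr11:7987327-7987356, plus strand: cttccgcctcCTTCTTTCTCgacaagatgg
EIF3K, chr19:38619178-38619207, plus strand: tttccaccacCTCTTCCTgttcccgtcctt
EIF3M, chr11:32583821-32583850, plus strand: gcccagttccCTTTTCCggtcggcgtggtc
EIF4A2, chr3:186783567-186783596, plus strand: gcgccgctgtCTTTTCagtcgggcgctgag
EIF4B, chr12:53006446-53006475, plus strand: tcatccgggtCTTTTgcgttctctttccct
The run was longest at EEF1B2, with 16 bases, and shortest at EIF4B, with 5. EEF1B2 has 2 RefSeq starts, and its start without the motif is not shown.

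Members without the motif at a RefSeq start included EEF1G and EIF4A1, which fell in both lines, and EIF4E and EIF4G2, which passed the test in neither. Their windows are shown for comparison, with no capitals because none has a C and 4 further bases of C or T at the start. EIF4G2 has a pair of RefSeq starts.
EEF1G, chr11:62573872-62573901, minus strand: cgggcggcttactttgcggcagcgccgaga
EIF4A1, chr17:7572815-7572844, plus strand: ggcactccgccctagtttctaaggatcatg
EIF4E, chr4:98929114-98929143, minus strand: tggagcggttgtgcgatcagatcgatctaa
EIF4G2, chr11:10807977-10808006, minus strand: tgtcggaagcacttccctaacttgcgcctg
EIF4G2, chr11:10808907-10808936, minus strand: acgccttagcgccagcagtgagtcggagct
A match is a description of the annotated start only, and its absence says only that these letters do not stand at that position. Starts were not found for EEF1A2, EEF1D, EEF2KMT, EIF2S2, EIF2S3L, EIF3A, EIF3CL, EIF3E, EIF3G, EIF3H and EIF3L.

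The 12 libraries summed to between 674153 and 845458 listed FPKM each. One library stood apart: MOLM-14 ASLAN003 replicate 1 differed from the others of its group by a median of 0.388 (absolute log2 difference over the members), against 0.193 and 0.208 for the other two. Of 11 myeloid markers, 10 were tested, and 8 rose and 1 fell in KG-1, and 5 rose and 1 fell in MOLM-14. Their summed level went from between 1312 and 1669 FPKM to between 27124 and 31032 in KG-1, and from between 1108 and 1206 to between 4356 and 8207 in MOLM-14, most of it S100A8, S100A9 and LYZ. CD34 was at most 0.17 FPKM in every library, although it marks immature myeloid cells. Of 5 listed markers of other cell types, PECAM1, NKG7 and CD79A rose in KG-1 and PECAM1 and NKG7 in MOLM-14. Their sums were 56.9 to 61.9 against 244 to 264 FPKM in KG-1 and 62.2 to 72.1 against 165 to 274 FPKM in MOLM-14. The highest of them with ASLAN003 was PECAM1, which is not confined to other cell types. Its mean was 28.6 against 199 FPKM in KG-1 and 22.2 against 124 FPKM in MOLM-14. The part of these shifts in the results below was not tested.

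In KG-1 many translation factor genes fell with ASLAN003, and few rose. Of the 58 members 26 fell (44.8%, against 14.3% of all genes tested) and 3 rose (against 19.4%), by limma at an adjusted p under 0.05, where 33.6% of all genes passed in either direction. The log2 change was below 0 for 47 members, with a median of -0.32, whereas the median over all genes was 0.05. All 3 treated libraries lay below all 3 DMSO libraries for 39 members, against 24.5% of all genes, and above them for 6, against 31.4%. The 3 that rose were EEF1A2, EIF4E3 and EIF1B. Of the 29 calls, 19 were kept under every other setting and without each library in turn, namely the rises of EEF1A2 and EIF4E3 and the falls of EEF1B2, EEF1D, EEF1G, EEF2KMT, EIF2B3, EIF2D, EIF3C, EIF3F, EIF3H, EIF3I, EIF3K, EIF3L, EIF3M, EIF4A1, EIF4B, EIF5A and EIF6. The count of members lower was 33 after centring each library on its median, which lowers all changes by a median of 0.12. In that fit 20% of all genes were lower. The count was 18, beside 6 higher, after each library was rescaled leaving out genes of mitochondria, histones, ribosomal RNA and small RNAs. This rescaling raises all changes by a median of 0.13, and 9.93% of all genes were lower with it. That rescaling moved the KG-1 changes of EEF1D to -0.29, EIF3H to -0.27, EIF4A3 to -0.22, EIF3A to -0.17 and EIF4G1 to -0.17, the last 3 with no call. The KG-1 calls of EEF1A1, EEF2K, EIF1AX, EIF3E and EIF4A2 were also lost with it.

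In MOLM-14 the members that passed the test were again lower with ASLAN003. Of the 58, 15 fell (25.9%, against 3.33% of all genes tested) and 0 rose by limma (against 9.69%; 2 were higher at an unadjusted p under 0.05), where 13.0% of all genes passed in either direction. The median log2 change of the members was -0.19, against 0.08 over all genes, and 42 members were below 0. Treated and DMSO libraries did not overlap for 25 members that were lower, against 8.17% of all genes, and for 2 that were higher, against 17.7%. The falls of EEF1D, EEF1G and EIF3L were kept under every other setting and without each library. The count of members lower ranged from 8 to 19 when libraries were left out in turn, with 10 lower and 2 higher (EIF1B and EIF4E) without MOLM-14 ASLAN003 replicate 1, 8 lower without MOLM-14 DMSO replicate 1 or 2, and 9 without MOLM-14 DMSO replicate 3, KG-1 DMSO replicate 2 or 3 or KG-1 ASLAN003 replicate 1. It was 3 with each line fitted alone, 8 without trend and robust estimation and 9 with library weights. The fit reported shares its spread over all groups, and the median SD of the members was largest in MOLM-14 ASLAN003 (0.253 on the log2 scale). The count of members lower was 23 after centring, which lowers all changes by a median of 0.15, with 6.90% of all genes lower. It was 8, beside 2 higher, after the rescaling that leaves out mitochondrial, histone and the other abundant genes. That rescaling raises all changes by a median of 0.12, with 2.21% of all genes lower. That rescaling moved the MOLM-14 changes of EIF3B and EIF3F to -0.24, EIF3H and EIF4A1 to -0.21 and EEF2 to -0.16, with no call, and without MOLM-14 ASLAN003 replicate 1 EIF2S3 was at -0.27 and EIF4A1 at -0.21.

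Of the members, 12 fell in both lines: EEF1A1, EEF1B2, EEF1D, EEF1G, EEF2, EIF3C, EIF3F, EIF3H, EIF3I, EIF3L, EIF4A1 and EIF4B. That is against 2.23% of all genes tested. Only EEF1D, EEF1G and EIF3L kept both calls under every other setting and without each library. A further 14 fell in KG-1 without passing in MOLM-14, and 3 (EIF2S3, EIF2S3L and EIF3B) fell in MOLM-14 without passing in KG-1. No member rose in 1 line and fell in the other, and 26 passed in neither line. RNA came from whole cultures, so fewer cells of a kind and less RNA per cell cannot be told apart.

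**Figure D1:**
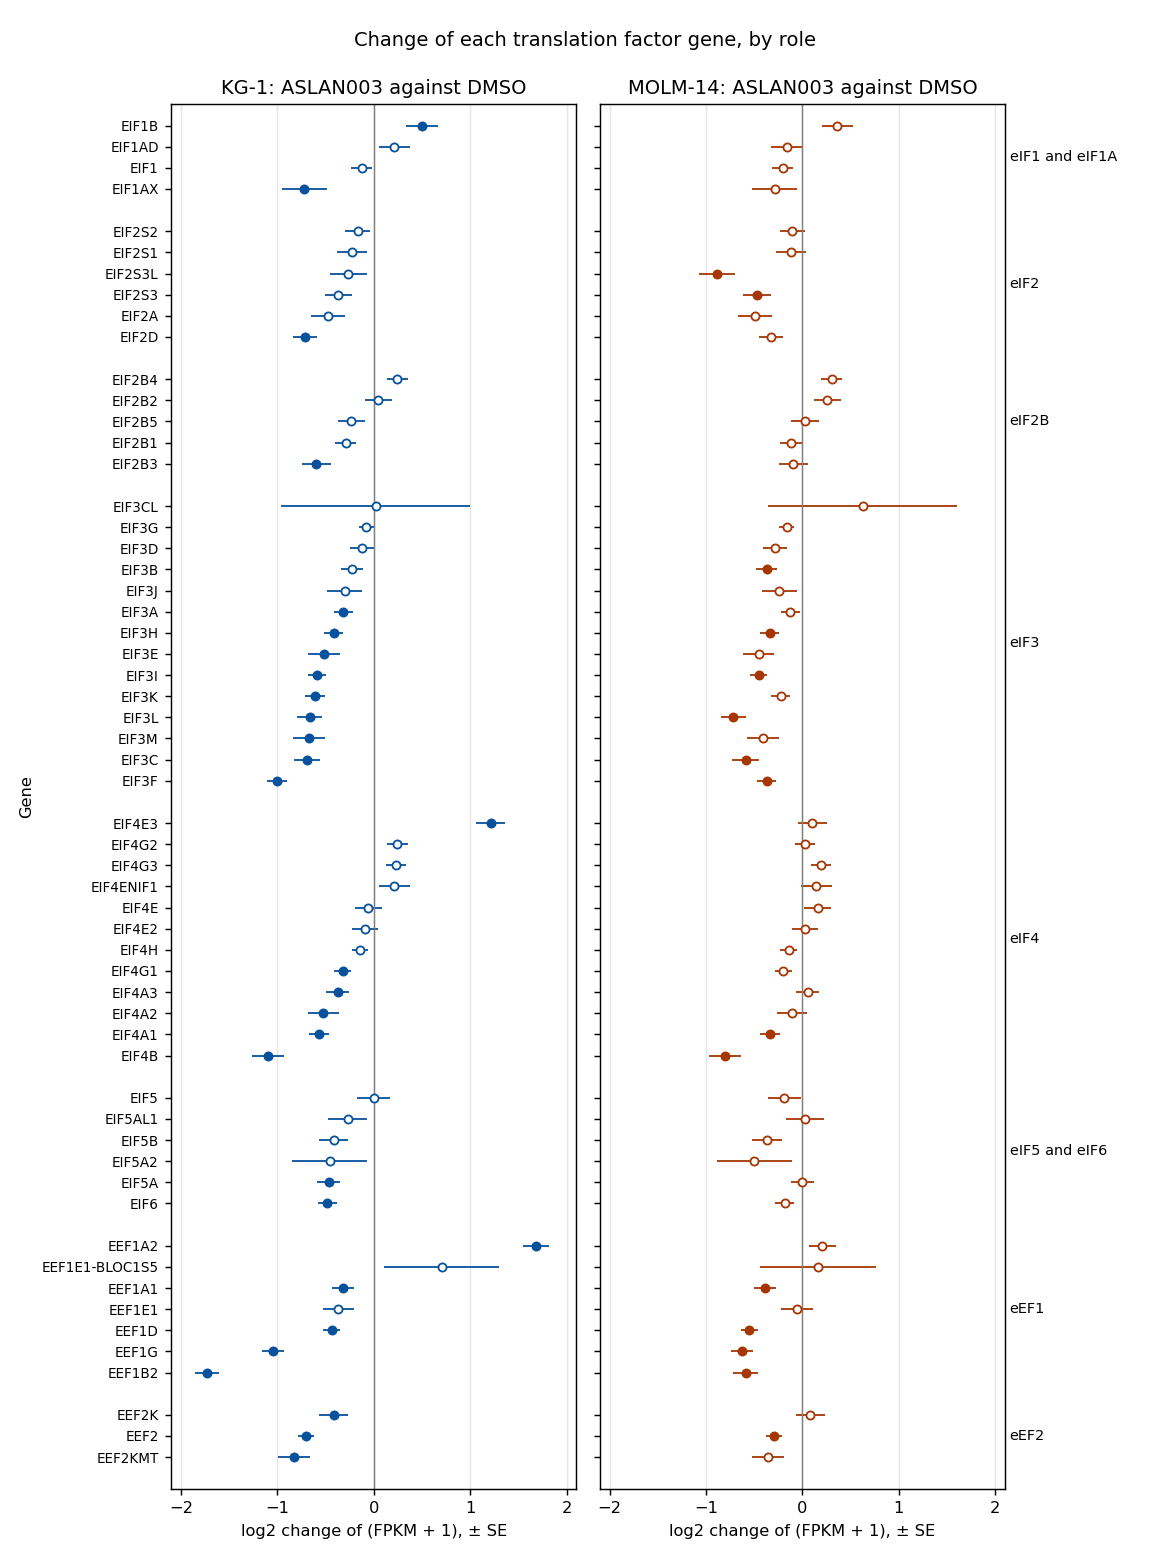
Log2 change of (FPKM + 1) with ASLAN003 against DMSO for the translation factor genes by role, in KG-1 (left, blue) and MOLM-14 (right, brown). Points are fitted changes with the SE of the fit, whose spread is shared over the 4 groups of 3 libraries. They are filled where the limma adjusted p is under 0.05, and EIF1AY is not drawn. Filled points lie left of 0 except EIF1B, EIF4E3 and EEF1A2 in KG-1.

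The main eEF1A gene and its exchange subunits EEF1B2, EEF1D and EEF1G fell in both lines, while the paralogue EEF1A2 rose in KG-1. EEF1A1, the main eEF1A gene (chr6, 73515750 to 73523797 on GRCh38), was the most abundant gene of the table in 9 of the 12 libraries and the second in the 3 KG-1 ASLAN003 libraries. Its levels were 13418, 12791 and 14806 FPKM in KG-1 with DMSO and 10557, 10891 and 11472 FPKM with ASLAN003. In MOLM-14 they were 18203, 18885 and 19605 FPKM with DMSO and 11657, 16214 and 15803 FPKM with ASLAN003. Treated libraries were below DMSO libraries in both lines without overlap, with log2 changes of -0.32 ± 0.11 in KG-1 (SE, adjusted p = 0.0485) and -0.39 ± 0.11 in MOLM-14 (adjusted p = 0.0401). Neither call is firm. Quantile normalization moved the changes to -0.70 in KG-1 and 0 in MOLM-14, the rescaling moved them to -0.16 and -0.26 with no call, and both calls were lost without trend and robust estimation, that of KG-1 also with a pseudocount of 0.1 or no filter and that of MOLM-14 with library weights or each line fitted alone. The KG-1 call was lost without any 1 of the KG-1 libraries (log2 changes of -0.36 to -0.26) or of the MOLM-14 DMSO libraries, and the MOLM-14 call without any 1 of the DMSO libraries of either line or KG-1 ASLAN003 replicate 1 or 2; without MOLM-14 ASLAN003 replicate 1 the MOLM-14 change was -0.24.

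EEF1B2, the eEF1B subunit that exchanges the nucleotide on eEF1A, had the largest fall of all members in KG-1. There its levels were 966, 881 and 927 FPKM with DMSO and 267, 286 and 280 FPKM with ASLAN003. Every treated library was far below every DMSO library, with a log2 change of -1.73 ± 0.13 (adjusted p = 1.23e-06). In MOLM-14 the levels were 1444, 1496 and 1537 FPKM with DMSO and 774, 1189 and 1058 FPKM with ASLAN003, a log2 change of -0.59 ± 0.13 (adjusted p = 0.00969). The groups did not overlap there either, and replicate 1 was the lowest treated library. The MOLM-14 call was lost with each line fitted alone.

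EEF1G, the subunit that anchors the exchange complex, was at 2429, 2226 and 2401 FPKM in KG-1 with DMSO and at 1206, 1057 and 1156 FPKM with ASLAN003. Its MOLM-14 levels were 2907, 3006 and 2964 FPKM with DMSO and 1564, 2162 and 2077 FPKM with ASLAN003. Both falls were without overlap, by 1.05 ± 0.11 on the log2 scale in KG-1 (adjusted p = 1.72e-05) and by 0.63 ± 0.11 in MOLM-14 (adjusted p = 0.00374). Quantile normalization kept both calls but moved the changes to -0.36 and -0.24. EEF1D, the other exchange subunit, went from 240, 235 and 256 to 194, 160 and 186 FPKM in KG-1 and from 613, 655 and 594 to 403, 447 and 420 FPKM in MOLM-14. Its log2 changes were -0.44 ± 0.09 and -0.55 ± 0.09 (adjusted p = 0.00238 and 0.0023), again with every treated library below every DMSO library. EEF1E1, a relative found in the multi-tRNA synthetase complex, passed in neither line (log2 changes -0.37 ± 0.17 and -0.06 ± 0.17), nor did its readthrough transcript EEF1E1-BLOC1S5, which was at most 3.09 FPKM in any library.

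Set against EEF1A1 within each library, EEF1B2 was 6.78 ± 0.48% of its FPKM in KG-1 with DMSO and 2.53 ± 0.09% with ASLAN003 (SD, n = 3). The same ratio was 7.90 ± 0.05% and 6.89 ± 0.39% in MOLM-14. EEF1G was 17.2 ± 0.96% and 10.4 ± 0.90% of EEF1A1 in KG-1, and 15.7 ± 0.48% and 13.3 ± 0.14% in MOLM-14. EEF1D was at 1.78 ± 0.06% and 1.64 ± 0.18% in KG-1 and 3.29 ± 0.23% and 2.96 ± 0.43% in MOLM-14, and the treated and DMSO libraries overlapped in both lines. These ratios do not change when a library is rescaled as a whole.

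EEF1A2, the eEF1A paralogue known from muscle and neurons, went the opposite way in KG-1. It was at 0.96, 1.31 and 1.01 FPKM with DMSO and at 6.74, 5.61 and 4.90 FPKM with ASLAN003, a rise of 1.68 ± 0.14 on the log2 scale (adjusted p = 3.01e-06), which the added 1 FPKM makes smaller at such low levels. In MOLM-14 it was already at 27.4, 28.8 and 28.9 FPKM with DMSO and was at 34.7, 33.7 and 30.4 FPKM with ASLAN003, where the change of 0.21 ± 0.14 did not pass (adjusted p = 0.373). Its share of the FPKM of the pair EEF1A1 and EEF1A2 was 0.00807 ± 0.0019% and 0.0527 ± 0.011% in KG-1, and 0.150 ± 0.003% and 0.232 ± 0.057% in MOLM-14 (SD, n = 3). EEF1A1 thus made up nearly all eEF1A mRNA in every library.

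EEF2, the translocation factor, was at 2189, 2033 and 2094 FPKM in KG-1 with DMSO and at 1282, 1236 and 1367 FPKM with ASLAN003. Its MOLM-14 levels were 2642, 2508 and 2275 FPKM with DMSO and 1997, 2130 and 1922 FPKM with ASLAN003. Treated libraries were lower without overlap in both lines, with log2 changes of -0.70 ± 0.08 (adjusted p = 3.53e-05) and -0.29 ± 0.08 (adjusted p = 0.0326), but quantile normalization turned them to 0.01 and 0.09, with no call. EEF2 ranked between 64 and 89 by FPKM in each library, and its rank differed little between the KG-1 groups (66 to 69 with DMSO, 65 to 71 with ASLAN003), which is what quantile normalization keeps. The MOLM-14 call was also lost without KG-1 DMSO replicate 2 or 3, KG-1 ASLAN003 replicate 1, MOLM-14 DMSO replicate 1 or 2 or MOLM-14 ASLAN003 replicate 3 (log2 changes of -0.35 to -0.25 over all left-out libraries). Over all settings and left-out libraries that call was kept in 13 of 23. EEF2KMT, which methylates eEF2, fell in KG-1 from 11.0, 13.3 and 10.0 to 5.37, 5.90 and 6.76 FPKM, by 0.82 ± 0.17 on the log2 scale (adjusted p = 0.00213). EEF2K, the kinase that inhibits eEF2, was at 9.20 to 10.6 FPKM with DMSO against 7.01, 6.88 and 8.09 FPKM (log2 change -0.42 ± 0.15, adjusted p = 0.0471), a call that was lost without any 1 of the DMSO libraries of either line or KG-1 ASLAN003 replicate 1 or 2. Neither passed in MOLM-14.

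**Figure D2:**
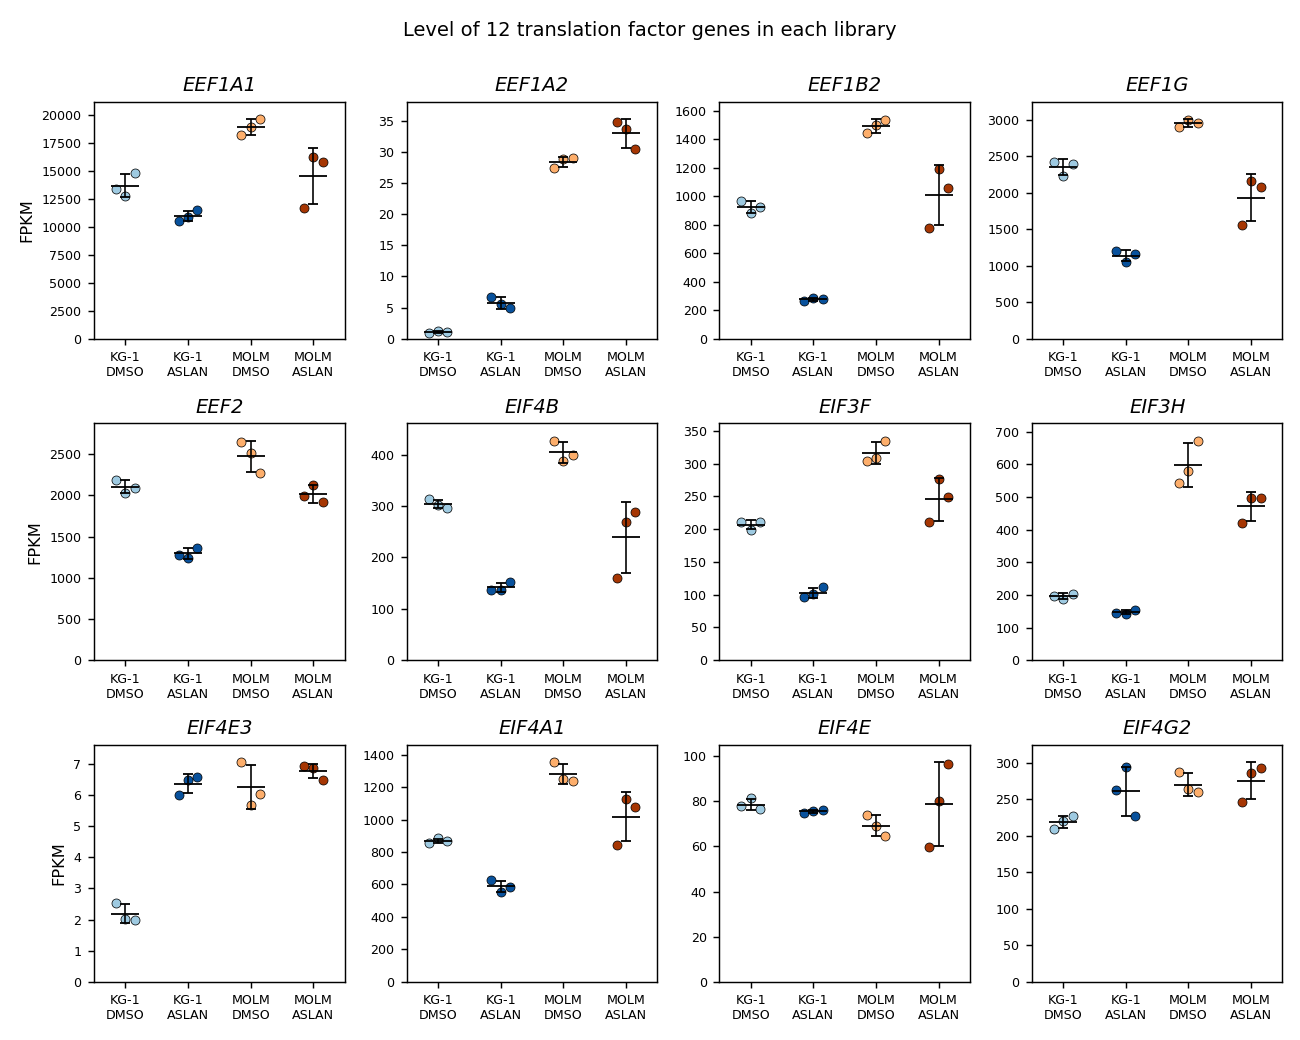
FPKM of 12 translation factor genes in each of the 12 libraries, with the mean and SD of 3 libraries per group (bars), each panel on its own linear axis from 0. EEF1B2, EEF1G, EIF4B and EIF3F are lower in every ASLAN003 library of both lines, EEF1A2 and EIF4E3 are higher in the KG-1 ASLAN003 libraries, and MOLM-14 ASLAN003 replicate 1 (leftmost brown point) is often the lowest of its group.

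Among the 14 eIF3 genes 9 fell in KG-1 (against 14.3% of all genes) and 6 in MOLM-14 (against 3.33%). Treated libraries lay below DMSO libraries without overlap for 12 of them in KG-1 (against 24.5%) and for 9 in MOLM-14 (against 8.17%). The median log2 change of the eIF3 genes was -0.47 in KG-1 and -0.36 in MOLM-14. Grouped after their values were seen, the 8 subunits with a PCI or MPN domain (EIF3A, EIF3C, EIF3E, EIF3F, EIF3H, EIF3K, EIF3L and EIF3M), which form the core of the mammalian complex, all fell in KG-1 (median -0.63), whereas EIF3I was the only one to fall among the other 5 (EIF3B, EIF3D, EIF3G, EIF3I and EIF3J, median -0.22). In MOLM-14, 4 of the 8 and 2 of the 5 fell (medians -0.39 and -0.29).

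EIF3F, an MPN domain subunit, had the largest eIF3 fall in KG-1, from 211, 199 and 210 to 96.9, 100 and 111 FPKM. In MOLM-14 it was at 305, 309 and 335 FPKM with DMSO and at 212, 276 and 249 FPKM with ASLAN003. The log2 changes were -1.004 ± 0.10 (adjusted p = 1.16e-05) and -0.37 ± 0.10 (adjusted p = 0.0306), without overlap in either line. The MOLM-14 call was lost without any 1 of the MOLM-14 DMSO libraries or MOLM-14 ASLAN003 replicate 1 (log2 changes of -0.46 to -0.27 over all left-out libraries). That call was also lost with the rescaling without mitochondrial and other abundant genes, without trend and robust estimation, with library weights and with each line fitted alone.

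EIF3L, a PCI domain subunit, fell in both lines under every setting. It was at 374, 316 and 379 against 209, 238 and 226 FPKM in KG-1 and at 536, 558 and 643 against 287, 367 and 408 FPKM in MOLM-14. The log2 changes were -0.66 ± 0.13 (adjusted p = 0.00172) and -0.72 ± 0.13 (adjusted p = 0.00404), and treated libraries were lower without overlap. EIF3C was at 387, 399 and 365 against 249, 217 and 245 FPKM in KG-1 and at 445, 403 and 394 against 209, 314 and 315 FPKM in MOLM-14, with log2 changes of -0.69 ± 0.14 and -0.59 ± 0.14 (adjusted p = 0.00197 and 0.0151; the latter was lost without MOLM-14 DMSO replicate 1, at -0.54). The MOLM-14 call of EIF3C was also lost with each line fitted alone. EIF3CL, the near-identical copy of EIF3C, ranged from 0 to 10.7 FPKM with no order by group, so how reads were shared between the copies is uncertain.

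EIF3H was at 197, 188 and 204 against 144, 143 and 154 FPKM in KG-1 and at 542, 580 and 672 against 421, 497 and 498 FPKM in MOLM-14. EIF3H fell by 0.42 ± 0.10 on the log2 scale in KG-1 (adjusted p = 0.00585), while its MOLM-14 fall of 0.34 ± 0.10 (adjusted p = 0.0399) was lost without any 1 of 8 libraries (KG-1 DMSO replicates 1 to 3, KG-1 ASLAN003 replicates 1 and 2, MOLM-14 DMSO replicates 2 and 3 and MOLM-14 ASLAN003 replicate 1). The MOLM-14 call of EIF3H was also lost with the same rescaling, without trend and robust estimation, with library weights and with each line fitted alone. EIF3I, a WD repeat subunit, fell by 0.59 ± 0.09 and 0.46 ± 0.09 (adjusted p = 0.000341 and 0.00697). Its MOLM-14 call was lost with each line fitted alone. EIF3K and EIF3M, further PCI domain subunits, fell in KG-1 by 0.61 ± 0.10 and 0.68 ± 0.17 and were at -0.23 ± 0.10 and -0.41 ± 0.17 in MOLM-14 without passing. EIF3E, which had the highest mean level of the eIF3 genes in both MOLM-14 groups, was at 335, 347 and 402 against 238, 249 and 269 FPKM in KG-1 (log2 change -0.51 ± 0.16, adjusted p = 0.0282) and at 718, 731 and 918 against 425, 619 and 710 FPKM in MOLM-14 (-0.45 ± 0.16, adjusted p = 0.0884). Its KG-1 call was lost without KG-1 DMSO replicate 2 or 3 or KG-1 ASLAN003 replicate 1 or 2. EIF3A, the largest subunit, had KG-1 levels of 81.1, 78.8 and 86.7 against 71.3, 66.0 and 60.5 FPKM (-0.32 ± 0.10, adjusted p = 0.0282), a call lost without any 1 of the KG-1 DMSO libraries or KG-1 ASLAN003 replicate 2 or 3. EIF3B was at 197, 197 and 175 against 137, 134 and 170 FPKM in MOLM-14 (-0.37 ± 0.11, adjusted p = 0.0452), a call lost without any 1 of the DMSO libraries of either line, KG-1 ASLAN003 replicate 1 or 2 or MOLM-14 ASLAN003 replicate 1 or 2. Over all settings and left-out libraries the MOLM-14 call of EIF3B was kept in 8 of 23. EIF3D, EIF3G and EIF3J passed in neither line, with log2 changes between -0.30 and -0.08.

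**Figure D3:**
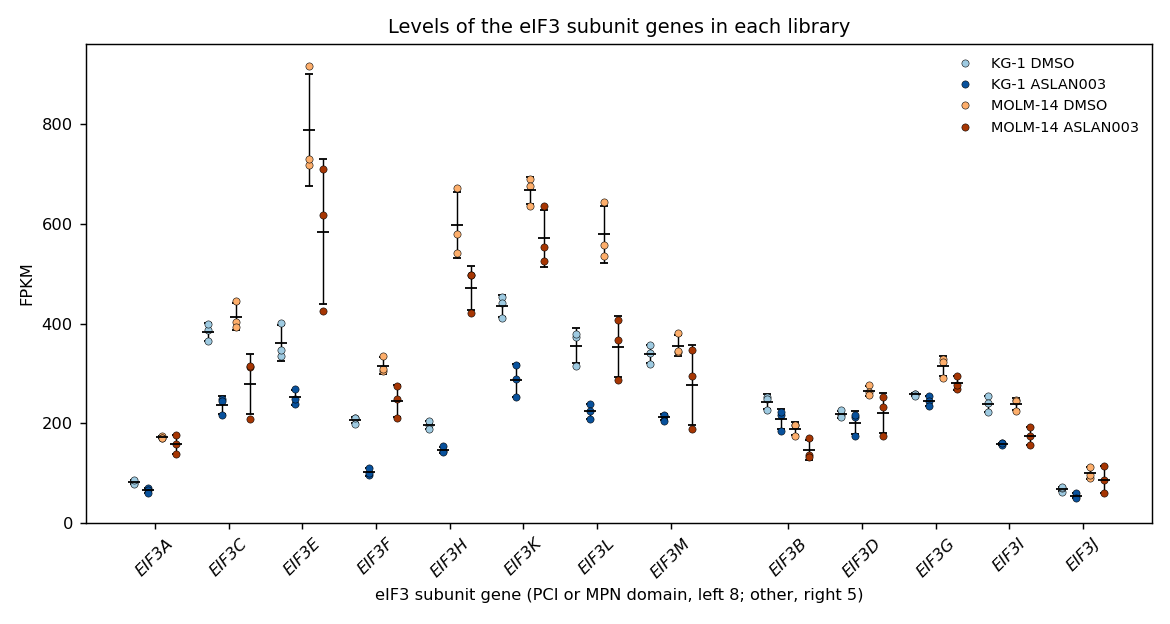
FPKM of 13 eIF3 subunit genes in each library (points) with the mean and SD of 3 libraries per group (bars); the 8 subunits with a PCI or MPN domain are on the left, and EIF3CL is not drawn. The KG-1 ASLAN003 points lie below the KG-1 DMSO points for each of these 8 subunits, while EIF3H and EIF3E stand higher in MOLM-14 than in KG-1.

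Among the 12 eIF4 genes, 5 fell and 1 rose in KG-1 (against 14.3% and 19.4% of all genes) and 2 fell in MOLM-14 (against 3.33%). The helicase EIF4A1 and its cofactor EIF4B fell in both lines, the cap-binding protein EIF4E passed in neither, and its minor paralogue EIF4E3 rose in KG-1. EIF4B, which stimulates eIF4A, was at 313, 301 and 297 against 137, 136 and 152 FPKM in KG-1. The MOLM-14 levels were 427, 388 and 399 against 161, 269 and 288 FPKM. It fell in both lines without overlap, by 1.10 ± 0.17 on the log2 scale (adjusted p = 0.000289) and by 0.80 ± 0.17 (adjusted p = 0.0084). The MOLM-14 call was lost with each line fitted alone.

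EIF4A1, the main helicase gene, was at 856, 884 and 868 against 625, 556 and 583 FPKM in KG-1 (log2 change -0.56 ± 0.10, adjusted p = 0.00116). Its MOLM-14 levels were 1353, 1250 and 1239 against 844, 1130 and 1081 FPKM (-0.34 ± 0.10, adjusted p = 0.0491), without overlap in either line. The MOLM-14 call was lost without any 1 of the KG-1 libraries, of the MOLM-14 DMSO libraries or MOLM-14 ASLAN003 replicate 1. It was also lost with a pseudocount of 0.1, no filter, quantile normalization, library weights or each line fitted alone. Over all settings and left-out libraries it was kept in 5 of 23. EIF4A2, the paralogue with an oligopyrimidine start, was at 507, 542 and 572 against 401, 362 and 364 FPKM in KG-1 (-0.52 ± 0.16, adjusted p = 0.022) and at 262, 277 and 281 against 182, 280 and 319 FPKM in MOLM-14 (-0.11 ± 0.16, adjusted p = 0.71). Its KG-1 call was lost without KG-1 DMSO replicate 2 or 3 or KG-1 ASLAN003 replicate 2 or 3. EIF4A2 made up 38.3 ± 1.3% of the FPKM of the EIF4A1 and EIF4A2 pair in KG-1 with DMSO and 39.0 ± 0.52% with ASLAN003, and 17.6 ± 1.2% and 20.1 ± 2.5% in MOLM-14 (SD, n = 3). All KG-1 libraries were above all MOLM-14 libraries in this share, and the treatments overlapped within each line. EIF4A3, the helicase of the exon junction complex, was at 82.8, 84.5 and 81.1 against 66.9, 63.9 and 60.4 FPKM in KG-1 (-0.37 ± 0.12, adjusted p = 0.0308), a call lost without any 1 of the KG-1 libraries.

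EIF4E, the cap-binding protein, was at 77.7, 81.3 and 76.7 against 74.9, 75.8 and 76.0 FPKM in KG-1. MOLM-14 had 73.9, 69.3 and 64.5 against 59.6, 80.3 and 96.4 FPKM. The treated KG-1 libraries all lay just below the DMSO libraries, and in MOLM-14 treated replicate 1 was the lowest and replicate 3 the highest of that line, so neither change passed (-0.05 ± 0.14 and 0.16 ± 0.14). EIF4E2, a cap-binding relative that represses translation, did not pass either (-0.09 ± 0.13 and 0.03 ± 0.13). EIF4E3 was at 2.54, 2.03 and 1.98 FPKM in KG-1 with DMSO and at 6.01, 6.49 and 6.59 FPKM with ASLAN003, a rise of 1.21 ± 0.15 (adjusted p = 5.16e-05). In MOLM-14 it was at 7.05, 5.67 and 6.05 against 6.93, 6.88 and 6.50 FPKM, with overlap. Its share of the FPKM of the 3 eIF4E genes went from 1.58 ± 0.15% to 4.70 ± 0.27% in KG-1 and was 4.70 ± 0.58% and 4.81 ± 1.05% in MOLM-14 (SD, n = 3). The treated KG-1 libraries thus lay within the range of the MOLM-14 libraries in this share.

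EIF4G1, the scaffold that joins eIF4E to eIF4A and eIF3, was at 288, 292 and 268 against 249, 217 and 213 FPKM in KG-1 (log2 change -0.32 ± 0.09, adjusted p = 0.0138). That call was lost without KG-1 DMSO replicate 1 or 2 or KG-1 ASLAN003 replicate 2. EIF4G2, a relative that lacks the eIF4E-binding part, was at 210, 220 and 226 against 263, 294 and 227 FPKM in KG-1, without overlap but without passing (0.25 ± 0.10, adjusted p = 0.0891). Within the 3 eIF4G genes, EIF4G2 took 41.0 ± 1.7% and 49.7 ± 3.3% of the FPKM in KG-1 and 53.6 ± 0.92% and 56.3 ± 1.4% in MOLM-14 (SD, n = 3), with every treated library above every DMSO library of its line. EIF4G3 (0.23 ± 0.10 and 0.19 ± 0.10), the eIF4A cofactor EIF4H (-0.14 ± 0.09 in both) and the eIF4E transporter EIF4ENIF1 (0.22 ± 0.16 and 0.14 ± 0.16) passed in neither line.

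Of the 6 genes of the eIF2 class 1 fell in KG-1 (16.7%, close to the 14.3% of all genes) and 2 in MOLM-14 (33.3%, against 3.33%). EIF2S1, the subunit whose phosphorylation lowers initiation under stress, was at 147, 147 and 155 against 125, 142 and 117 FPKM in KG-1 and at 81.8, 78.8 and 62.2 against 51.2, 78.4 and 77.4 FPKM in MOLM-14. EIF2S2 and EIF2S1 passed in neither line, with log2 changes between -0.23 and -0.10. EIF2S3 was at 170, 177 and 180 against 133, 144 and 131 FPKM in KG-1 (-0.37 ± 0.14, adjusted p = 0.0668) and at 172, 159 and 160 against 89.0, 123 and 149 FPKM in MOLM-14 (-0.47 ± 0.14, adjusted p = 0.049). Treated libraries were lower without overlap in both lines, but the MOLM-14 call was lost without any 1 of the libraries other than MOLM-14 ASLAN003 replicate 3. Over all settings and left-out libraries that call was kept in 5 of 23.

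EIF2S3L, a retrocopy of EIF2S3, was at 1.77, 1.85 and 1.66 against 0.70, 0.23 and 0.59 FPKM in MOLM-14, a fall of 0.89 ± 0.19 (adjusted p = 0.0102), which a pseudocount of 0.1 moved to -1.71, at levels where the split of reads between the copies is uncertain. That call was lost with each line fitted alone. EIF2D, a factor that can place initiator tRNA without eIF2, fell in KG-1 from 52.9, 52.6 and 55.5 to 26.5, 31.8 and 40.1 FPKM (-0.71 ± 0.13, adjusted p = 0.000952). EIF2A, another such factor, did not pass (-0.47 ± 0.17 and -0.49 ± 0.17, adjusted p = 0.053 and 0.0863). Of the 5 eIF2B genes EIF2B3 alone passed, in KG-1, from 23.6, 21.9 and 20.4 to between 12.7 and 15.02 FPKM (-0.60 ± 0.15, adjusted p = 0.00887). EIF2B5, the catalytic subunit, was at 78.6, 73.0 and 85.5 against 64.5, 71.5 and 65.3 FPKM in KG-1 and at 46.8, 60.0 and 49.4 against 64.8, 43.0 and 52.9 FPKM in MOLM-14, where the groups overlapped. EIF2B1, EIF2B2, EIF2B4 and EIF2B5 had log2 changes between -0.29 and 0.30 over both lines.

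EIF1 and EIF1A set the start codon choice of the scanning ribosome. EIF1, at 278, 268 and 298 against 271, 260 and 243 FPKM in KG-1 and at 379, 369 and 418 against 282, 369 and 369 FPKM in MOLM-14, did not pass in either line (-0.12 ± 0.11 and -0.20 ± 0.11). EIF1B, its paralogue, was at 32.4, 29.4 and 28.8 against 39.4, 49.2 and 41.4 FPKM in KG-1, a rise of 0.50 ± 0.16 (adjusted p = 0.0304), and at 19.3, 25.1 and 24.9 against 23.7, 37.3 and 29.8 FPKM in MOLM-14 (0.36 ± 0.16, adjusted p = 0.165). The KG-1 call was lost without any 1 of the KG-1 libraries other than ASLAN003 replicate 1. The share of EIF1B in the FPKM of EIF1 and EIF1B was 9.71 ± 0.84% and 14.4 ± 1.6% in KG-1 and 5.61 ± 0.75% and 8.13 ± 0.92% in MOLM-14 (SD, n = 3), higher in each treated library than in any DMSO library of its line. EIF1AX, the eIF1A gene of chromosome X, was at 62.7, 67.5 and 65.4 against 42.4, 40.1 and 35.3 FPKM in KG-1 (-0.72 ± 0.23, adjusted p = 0.0311), a call lost without any 1 of the KG-1 libraries. EIF1AD, a protein with an eIF1A domain, and EIF1AY, the chromosome Y copy whose levels are not given here, passed in neither line.

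EIF5A, the hypusine-bearing factor that helps ribosomes past stalls, fell in KG-1 from 626, 612 and 541 to 453, 415 and 416 FPKM (-0.47 ± 0.12, adjusted p = 0.00891). MOLM-14 levels were 545, 523 and 506 against 422, 584 and 581 FPKM, with overlap. EIF5A2 took 1.78 ± 0.78% and 1.67 ± 0.62% of the FPKM of the EIF5A and EIF5A2 pair in KG-1, and 0.414 ± 0.14% and 0.296 ± 0.28% in MOLM-14 (SD, n = 3), with overlap between treatments in both. EIF6, which keeps the large subunit from joining too early, fell in KG-1 from 243, 236 and 203 to 176, 149 and 162 FPKM (-0.48 ± 0.10, adjusted p = 0.00237). EIF5, EIF5B and EIF5AL1 passed in neither line, with log2 changes between -0.42 and 0.02.

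**Figure D4:**
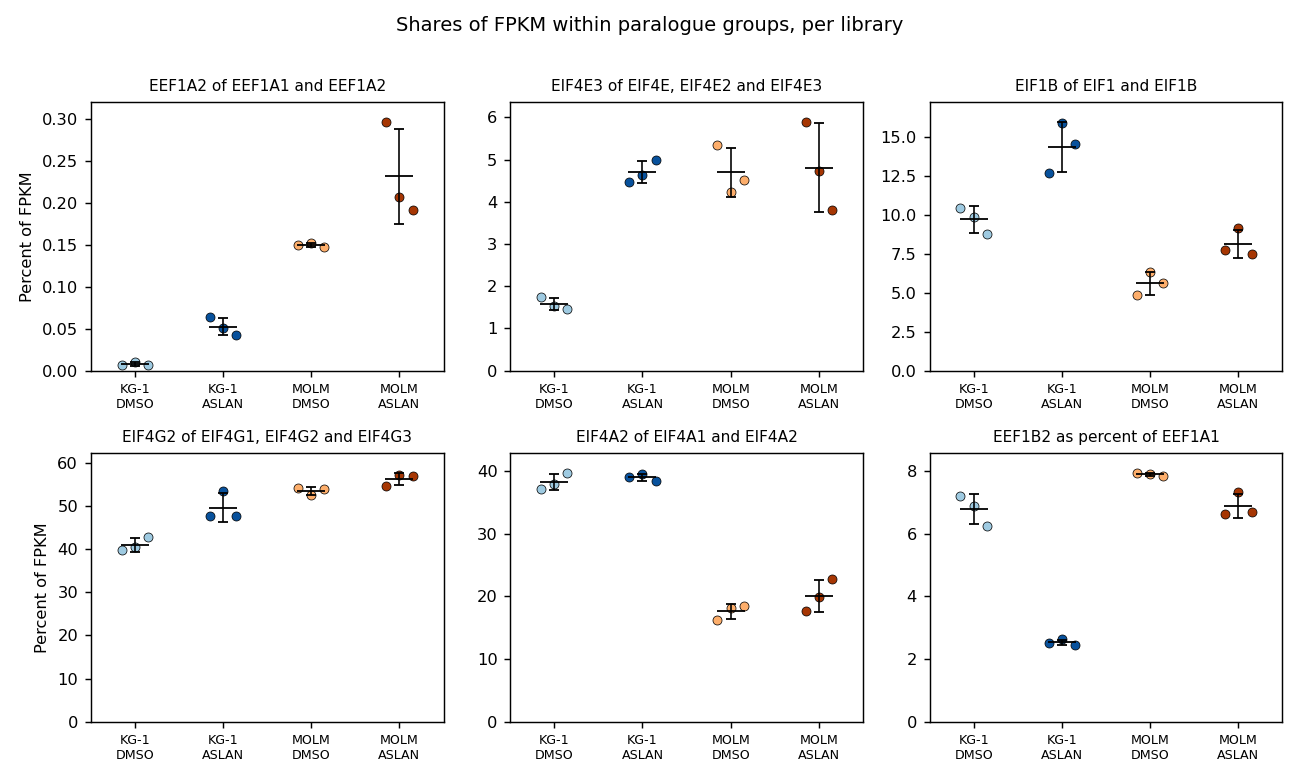
Share of FPKM within paralogue groups (percent) in each library, with the mean and SD of 3 libraries per group (bars), each panel on its own linear axis from 0. In KG-1 the shares of EEF1A2, EIF4E3, EIF1B and EIF4G2 are higher and EEF1B2 relative to EEF1A1 is lower with ASLAN003, while EIF4A2 overlaps.

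The classes of start are compared as a description, with no test. Of the 12 members with the motif, 9 fell in KG-1, with a median log2 change of -0.64, and 6 in MOLM-14, with a median of -0.38. All 12 were below 0 in both lines. Of the 35 with another start, 11 fell and 2 rose in KG-1 (median -0.23), and 5 fell in MOLM-14 (median -0.12). Of the 11 with no start found, 6 fell and 1 rose in KG-1 (median -0.32) and 4 fell in MOLM-14 (median -0.34, close to that of the motif class). Over all genes tested 14.3% fell and 19.4% rose in KG-1, and 3.33% fell in MOLM-14. The shares that fell in KG-1 and MOLM-14 were 75% and 50% with the motif and 31.4% and 14.3% with another start. With no start found they were 54.5% and 36.4%, so each class was above all genes. EIF2A, EIF2S3 and EIF3D, each with the motif shown above, did not pass in KG-1, and EEF1G, whose start reads without it, had the third largest fall of all members in KG-1.

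Outside the members and the ribosomal protein genes, 22.2% of the 643 tested genes with the motif at a start fell in KG-1 and 18.8% rose, against 13.8% and 20.9% of 8437 genes with another start. In MOLM-14 4.20% of the former fell, against 2.13%. The 83 cytosolic ribosomal protein genes, most of which are known to carry the motif, fell nearly as a whole: 78 in KG-1 (median log2 change -0.86) and 77 in MOLM-14 (median -0.56), with 1 rise in KG-1. Ribosomal protein genes took 26.2 ± 0.59% of all listed FPKM in KG-1 with DMSO and 15.8 ± 0.54% with ASLAN003, and 34.0 ± 0.38% and 25.5 ± 2.6% in MOLM-14. The translation factor members took 3.63 ± 0.13% and 2.97 ± 0.03% in KG-1, and 4.34 ± 0.07% and 3.63 ± 0.43% in MOLM-14 (SD, n = 3), much of it EEF1A1. Rescaled without the ribosomal protein genes, 29 members were lower in KG-1 and 15 in MOLM-14, against 14.5% and 3.48% of all genes.

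**Figure D5:**
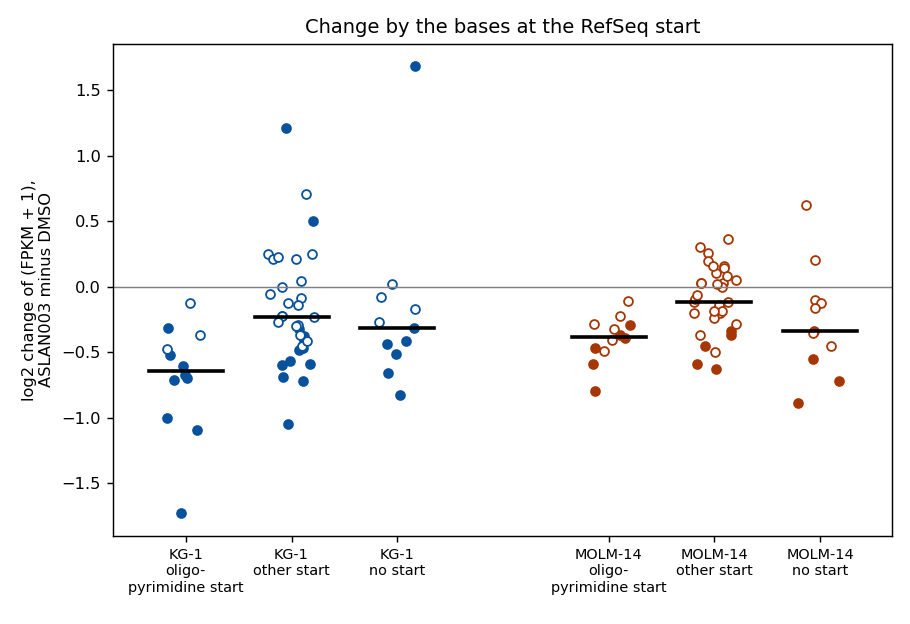
Log2 change of (FPKM + 1) with ASLAN003 against DMSO for members with an oligopyrimidine start, another start or no RefSeq start found, in KG-1 (blue) and MOLM-14 (brown). Filled points have a limma adjusted p under 0.05, bars are medians over all members of the class, sideways scatter carries no meaning and EIF1AY is not drawn; the median is -0.64 for the oligopyrimidine class in KG-1 and -0.38 in MOLM-14.

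The difference between the lines was tested itself, as the KG-1 change minus the MOLM-14 change. It passed for 5 members, 2 above 0 (against 5.05% of all genes) and 3 below 0 (against 4.89%), beside 9.94% of all genes in either direction, so the members' share was close to or below that of all genes. EEF1A2 and EIF4E3 rose more in KG-1, by 1.48 ± 0.20 and 1.11 ± 0.21 on the log2 scale (adjusted p = 0.000969 and 0.00647). EEF1B2, EIF3F and EEF2 were further below 0 in KG-1, by differences of -1.14 ± 0.18, -0.63 ± 0.14 and -0.41 ± 0.12 (adjusted p = 0.00243, 0.0156 and 0.0428). Apart from EEF2, these calls were kept under every other setting and without each library. That of EEF2 was lost without trend and robust estimation, after centring (-0.38), after quantile normalization (-0.08) and without any 1 of KG-1 DMSO replicates 1 to 3, KG-1 ASLAN003 replicates 1 and 2, MOLM-14 DMSO replicates 2 and 3 and MOLM-14 ASLAN003 replicate 2 (differences of -0.46 to -0.35 over all left-out libraries). Without MOLM-14 ASLAN003 replicate 1, the difference passed below 0 for 12 members and above 0 for the same 2. The 12 were the 3 already named and EEF1G, EIF1AX, EIF3K, EIF3M, EIF4A1, EIF4A2, EIF4A3, EIF4B and EIF5A. The share of all genes that passed in that fit is not given here.

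With DMSO alone, the lines differed in many translation factors, as they did in many genes at large. The share of members higher in KG-1 was close to that of all genes. At 96 h in DMSO 15 members were higher in KG-1 (25.9%, against 27.1% of all genes) and 19 were higher in MOLM-14 (32.8%, against 22.1%), where 49.2% of all genes passed in either direction. The median difference of the members was -0.01 (KG-1 minus MOLM-14, log2). After the rescaling without mitochondrial and other abundant genes 19 were higher in KG-1 and 14 in MOLM-14, where 17.2% of all genes were higher in MOLM-14. KG-1 lay above MOLM-14 without overlap for 21 of the 58 members, a share close to the 34.3% of all genes. It lay below MOLM-14 for 23 of the 58, against 29.0% of all genes. By role, 8 of the 14 eIF3 genes and 5 of the 7 eEF1 genes were higher in MOLM-14, with 1 of each higher in KG-1. EEF1A2 had the largest difference, -3.81 ± 0.14 (adjusted p = 4.11e-10), followed by EIF3H (-1.60 ± 0.10, adjusted p = 4.68e-08), EEF1D (-1.35 ± 0.09, adjusted p = 9.5e-08) and EIF4E3 (-1.19 ± 0.15, adjusted p = 2.66e-05). Higher in KG-1 were EIF5A2 at 6.12, 15.8 and 10.1 against 3.11, 1.98 and 1.51 FPKM (1.81 ± 0.39, adjusted p = 0.00187), EIF2S1 (1.01 ± 0.16, adjusted p = 0.00017) and EIF4A2 (0.98 ± 0.16, adjusted p = 0.000228). In the eIF2, eIF5 and eIF6 classes 3 genes each were higher in KG-1 (EIF2S1, EIF2S2 and EIF2A, and EIF5A2, EIF5AL1 and EIF6, where EIF2A and EIF5AL1 did not pass after centring or quantile normalization) and no gene of these classes passed as higher in MOLM-14.

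Further members higher in MOLM-14 with DMSO were EIF3A (-1.06), EIF3L (-0.70), EEF1B2 (-0.69), EIF2B1 (-0.64), EIF3K (-0.62), EIF3F (-0.61), EIF4A1 (-0.56) and EIF1 (-0.46), kept under every other setting. EIF3J (-0.54), EEF1A1 (-0.47), EEF1G (-0.33), EIF4G2 (-0.30), EIF3G (-0.28) and EEF2 (-0.23) were higher in MOLM-14 too, each lost under at least 1 other setting. Higher in KG-1 were EIF2B2 (0.84), EIF6 (0.72), EEF1E1 (0.66), EIF2B5 (0.60), EIF2S2 (0.57), EIF4G1 (0.50) and EIF4H (0.46), kept throughout. EIF5AL1 (0.57), EIF2A (0.45), EIF4ENIF1 (0.43) and EIF3B (0.36) were higher in KG-1 but lost under at least 1 setting or without 1 library. The libraries whose removal ended a call were KG-1 DMSO replicates 1 and 2 and MOLM-14 DMSO replicate 3 for EIF3J and EIF3B, KG-1 DMSO replicates 2 and 3 and MOLM-14 DMSO replicates 1 and 2 for EEF2 and EEF1G, and also MOLM-14 DMSO replicate 3 for EEF1G. For EIF4G2 they were all KG-1 DMSO libraries and MOLM-14 DMSO replicates 1 and 2, for EIF5AL1 replicates 1 and 2 with DMSO of each line, for EIF2A all KG-1 libraries and MOLM-14 DMSO replicates 1 and 2, and for EIF4ENIF1 all MOLM-14 DMSO libraries, KG-1 DMSO replicates 1 and 3 and KG-1 ASLAN003 replicate 1.

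All 3 members on chromosome 8 were among those higher in MOLM-14, a grouping made after their values were seen: EEF1D, EIF3H and EIF3E (-1.12 ± 0.16, adjusted p = 0.000103). Chromosome 8 genes differed between the lines as a whole. Of its 440 tested genes 70.9% were lower in KG-1, with a median difference of -0.92, while the medians of the other autosomes and chromosome X ranged from -0.31 to 0.43. The part of this shift in the differences of the 3 members was not tested. With ASLAN003 the change of EEF1D, EIF3H and EIF3E did not pass the test of a difference between the lines (differences of 0.11 ± 0.13, -0.08 ± 0.14 and -0.06 ± 0.23).

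Among regulators of translation, EIF4EBP1, PABPC1 and ATF4 fell in KG-1 and MKNK1 rose in both lines. Of 43 listed genes (eIF4E-binding proteins, eIF2 kinases, the mTOR pathway, poly(A)-binding, release and recycling factors) 42 were tested. In KG-1 4 rose and 6 fell, shares of 9.52% and 14.3% against 19.4% and 14.3% of all genes. In MOLM-14 1 rose and 1 fell, a share of 2.38% each, against 9.69% and 3.33% of all genes. The median log2 changes were -0.07 in both lines.

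EIF4EBP1, the repressor that binds eIF4E until mTOR phosphorylates it, fell in KG-1 from 51.6, 44.5 and 53.0 to 22.9, 18.1 and 24.3 FPKM (-1.16 ± 0.15, adjusted p = 8.55e-05). In MOLM-14 it was at 152, 152 and 143 against 90.9, 137 and 125 FPKM (-0.36 ± 0.15, adjusted p = 0.138). PABPC1, the main cytoplasmic poly(A)-binding protein and itself an mRNA with the oligopyrimidine motif, was at 859, 814 and 786 against 428, 372 and 453 FPKM in KG-1 (-0.97 ± 0.11, adjusted p = 2.42e-05) and at 2752, 2728 and 2818 against 2083, 2760 and 2609 FPKM in MOLM-14 (-0.17 ± 0.11, adjusted p = 0.354). For both genes the difference between the lines passed (-0.80 ± 0.21, adjusted p = 0.0333, and -0.81 ± 0.15, adjusted p = 0.00647), though that of EIF4EBP1 was lost without trend and robust estimation and without any 1 of 9 libraries, all but KG-1 DMSO replicate 2, KG-1 ASLAN003 replicate 3 and MOLM-14 ASLAN003 replicate 1. EIF2AK4, the eIF2 kinase that senses uncharged tRNA, had a difference of -0.69 ± 0.19 (adjusted p = 0.0399). That call was lost without any 1 of the KG-1 libraries, MOLM-14 DMSO replicate 1 or 3 or MOLM-14 ASLAN003 replicate 3. It was also lost after centring, after quantile normalization, after either rescaling and with the replicate block.

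MKNK1, a kinase of eIF4E, rose in both lines, from 17.6, 17.7 and 18.0 to 33.9, 30.8 and 29.7 FPKM in KG-1 and from 31.1, 31.1 and 30.9 to 65.7, 56.2 and 57.0 FPKM in MOLM-14. Its log2 changes were 0.79 ± 0.10 (adjusted p = 6.74e-05) and 0.92 ± 0.10 (adjusted p = 0.000192), kept under every other setting. ATF4, the transcription factor translated when eIF2 is phosphorylated, fell in KG-1 from 260, 239 and 334 to 170, 169 and 145 FPKM (-0.77 ± 0.14, adjusted p = 0.000923) and did not pass in MOLM-14 (-0.41 ± 0.14, adjusted p = 0.071). DPH2, an enzyme of diphthamide synthesis on eEF2, fell in KG-1 by 0.64 ± 0.18 on the log2 scale (adjusted p = 0.018), a call lost without KG-1 DMSO replicate 2 or KG-1 ASLAN003 replicate 2 or 3. PABPC4, another poly(A)-binding protein, fell in MOLM-14 from 203, 195 and 178 to 94.8, 127 and 140 FPKM (-0.68 ± 0.14, adjusted p = 0.0084). In KG-1 its change was -0.47 ± 0.14 (adjusted p = 0.023). That call was lost without KG-1 DMSO replicate 1 or 2 or KG-1 ASLAN003 replicate 3, and after the rescaling without mitochondrial and other abundant genes.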

How the data were processed

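RNA was sequenced from 12 libraries, 3 for each of 4 groups. The tools named, per the submitters' processing notes, are RSEM 1.2.25, STAR 2.4.2a and bcl2fastq 2.17.1.14, with builds hg38 and GRCh38; the sources used here name no annotation. The authors deposited log2(FPKM + 1) per gene and library, read from the values. FPKM is relative to the whole library, so abundant transcripts move all others. Read depth was not estimated here, and precision rests on how far libraries of a group differ.

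A gene was tested where 3 or more libraries had 1 FPKM or more, using limma 3.58.1 in R 4.3.3 on log2(FPKM + 1), a pseudocount of 1 that makes changes of low genes smaller. A model with the 4 group means and trended, robust eBayes was fitted to all genes, with two-sided tests and Benjamini-Hochberg adjustment over all of them; calls are at an adjusted p under 0.05, and errors of log2 values are SEs of the fit. The groups share an estimate of the spread of each gene, so its SE is the same in both lines. The median SD of the members on the log2 scale was 0.253 in MOLM-14 ASLAN003, against 0.088 to 0.105 in the other groups. P-values of the MOLM-14 changes may therefore be too small. Scripts were tested on simulated data. The labels do not say that libraries were separate cultures, so p-values measure only the spread between libraries, which may be technical. Positions are from GENCODE 29.

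The members, gene lists and rules were chosen with earlier results of these data known. By the rule for named genes, levels in every library were to be given for the largest called changes per line and comparison, the most abundant member of each role, paralogue groups and the most changed regulators; some of these are given for the line where the call was made, or as shares. A planned ranking of genes by likeness to the members was left out, since the libraries fall into separate clusters by line.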

Additional observations from a re-analysis of the deposited data

Results flagged for a closer look

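For 5 members the change with ASLAN003 differed between the lines by the limma test of the difference itself (KG-1 change minus MOLM-14 change, log2). The differences were 1.48 for EEF1A2, 1.11 for EIF4E3, -1.14 for EEF1B2, -0.63 for EIF3F and -0.41 for EEF2. The rise of EEF1A2 and EIF4E3 in KG-1 started from levels under 3 FPKM in DMSO, below those of MOLM-14. EEF1B2 and EIF3F fell in both lines and further in KG-1. The adjusted p of the EEF2 difference ranged from 0.0196 to 0.72 over the other settings and left-out libraries.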

How the results depend on the processing

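The settings were applied to 108 calls, those of the members and of regulators called with ASLAN003 or in the difference between the lines. Regulators called in DMSO alone were not among them. Of the 108, 65 were kept under every other setting and without each library, and 43 were lost under at least 1. Of the members' calls this left 19 of the 29 made in KG-1, 3 of the 15 made in MOLM-14, 4 of 5 in the difference between the lines and 24 of 34 in DMSO. Quantile normalization turned the EEF2 changes to 0.0082 in KG-1 and 0.085 in MOLM-14 and its DMSO difference to 0.1361. It also set the EEF1A1 change of MOLM-14 and its DMSO difference to 0, by construction, since EEF1A1 ranks first in those libraries. For other moves the cause was not tested.

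Members higher in KG-1 numbered 6, against 3, both with library weights and after rescaling that leaves out genes of mitochondria, histones, ribosomal RNA and small RNAs. Members higher in MOLM-14 numbered 2, against 0, after that rescaling. Members lower in MOLM-14, 15 in the fit reported, numbered 23 after centring on library medians (against 6.90% of all genes) and 8 after that rescaling (against 2.21%). They numbered 8 without trend and robust estimation, 9 with library weights and 3 with each line fitted alone. Members called below 0 in the difference numbered 8 with library weights, against 3. Regulators higher in KG-1, reported as 4, numbered 1 after centring, 7 after that rescaling, 2 without trend and robust estimation and 8 with library weights. Regulators lower in KG-1, reported as 6, numbered 10 after centring, 13 with library weights and 12 with each line fitted alone. In MOLM-14, regulators higher numbered 3 after that rescaling, against 1, and regulators lower 5 after centring and 2 after rescaling without ribosomal protein genes, against 1.

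Without each library in turn, members called higher in KG-1 numbered 2 to 4 and lower 18 to 30. Those called higher in MOLM-14 numbered 0 to 2 and lower 8 to 19, and those called in the difference 2 above 0 and 2 to 12 below. In DMSO they numbered 11 to 18 higher in KG-1 and 15 to 21 lower. Regulators numbered 1 to 4 higher and 3 to 8 lower in KG-1, and 1 to 2 higher and 1 to 2 lower in MOLM-14. A pseudocount of 0.1, no filter and a filter at 5 FPKM moved no count by over 1.5 times.

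Replicate numbers were not used to pair the libraries in the fit reported. Deviations of same-numbered libraries from their group means correlated at 0.041, 0.02 and 0.032 in KG-1. In MOLM-14 they correlated at 0.1, -0.002 and 0.04, and not every library correlated best with its own number. With 3 libraries per group such low values cannot show whether libraries were paired. With the replicate block 27 members were called lower and 3 higher in KG-1, and 14 lower and 0 higher in MOLM-14. In the difference 2 were called below and 2 above 0, and in DMSO 16 were called higher and 18 lower in KG-1. With 3 libraries per group, small changes may be missed. Calls lost with the block were the EEF2 difference between the lines and in DMSO, EEF2K, EIF3A, EIF4A3 and MTOR in KG-1, EIF2S3, EIF4A1 and EIF3B in MOLM-14 and the EIF2AK4 difference between the lines.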

Other observations

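Of the 14 pseudogene symbols left out of the members, 3 fell in KG-1 (21.4%, against 14.3% of all genes tested). They were EEF1B2P3, by 1.34 on the log2 scale, EEF1B2P6, by 1.46, and EIF3FP3, by 0.85. In MOLM-14 EEF1B2P3 alone fell, by 0.67 (7.14% of the symbols, against 3.33% of all genes tested). Each is a copy of a gene that fell in KG-1. So are EIF4BP3, EIF4BP6, EIF4BP7, EIF4A1P10, EEF1A1P6, EIF1AXP1 and EIF3EP1, which passed in neither line. The sources used here do not say how reads were shared between gene and copy. EEF1A1P5 was at 251 to 274 FPKM in KG-1 with DMSO and 206 to 219 FPKM with ASLAN003, without passing.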
